A study of Homo sapiens with 4 samples.

Results

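Short protein-coding genes, those spanning less than 3000 bp from annotated start to end, were examined for RNA polymerase II (Pol II) in U2OS cells, a human osteosarcoma cell line. A peak was counted when it overlapped by at least 1 bp the span of such a gene in the RefSeq annotation of GRCh38 on chromosomes 1 to 22 and X, and the replication-dependent histone genes and linker histone genes (symbols beginning with H1-, H2AC, H2BC, H3C or H4C) were left out. The rule took in 1838 of 19974 protein-coding genes. It selected 630 of 36345 peaks in the control list and 593 of 26387 in the knockdown list, 1223 of 62732 in all. The cells had received either a control siRNA, labelled NC, or an siRNA against NKAP, labelled NKAP KD, by lipid transfection over 48 h. Crosslinking before ChIP took 10 min in 1% formaldehyde. The labels name no other genotype or treatment. Each siRNA had 1 Pol II ChIP-seq library and 1 input library without antibody, and 1 peak list per ChIP library was used. With 1 ChIP library a group, no difference between the conditions has a replicate check and none was tested. All intervals below are 95% Wilson intervals over peaks or genes, which cover counting error only and treat neighbouring genes as independent, which they are not.

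Pol II is recruited to a promoter, pauses shortly after the start site, elongates through the gene and is released past the polyadenylation site. In a long gene these stages lie far apart, whereas in a short gene they lie close together, so that a wide ChIP-seq peak can span several of them. Short human genes with few or no introns include the genes of many immediate early and stress-induced proteins, the genes of ribosomal and mitochondrial proteins, metallothionein genes, and large families of sensory receptor and hair keratin genes that are silent in most tissues. NKAP is an RNA-binding protein of the nucleus that takes part in splicing and in transcriptional repression.

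The sequences just before the start site show how the promoters of short genes with Pol II differ among themselves. The 120 bases before the RefSeq start site are given from 5′ to 3′ on the strand of the gene (GRCh38.p14, sequence from RefSeq), with capitals for TATAA (the core of the TATA box), CCAAT (the CCAAT box) and GGGCGG (the GC box), each on either strand. ATF4, JUNB, GADD45B, ID1, MT2A, HSPA1A and H2AX are shown because they hold TATAAA near the start, JUND, TMSB10 and RPS27 because they are among the strongest members and hold TATAAG, RPL10A because it is strong and holds none of these letters, and CDK5R2 as a gene with a peak in the knockdown list only.
ATF4 (chr22:39520439-39520558, plus strand): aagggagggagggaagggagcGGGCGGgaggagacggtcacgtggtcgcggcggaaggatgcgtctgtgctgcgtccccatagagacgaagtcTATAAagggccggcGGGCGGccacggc
JUNB (chr19:12791366-12791485, plus strand): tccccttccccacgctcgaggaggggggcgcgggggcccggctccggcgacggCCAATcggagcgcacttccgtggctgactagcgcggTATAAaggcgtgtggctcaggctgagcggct
GADD45B (chr19:2476007-2476126, plus strand): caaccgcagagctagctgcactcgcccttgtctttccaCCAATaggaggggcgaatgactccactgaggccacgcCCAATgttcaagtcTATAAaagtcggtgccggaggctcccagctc
ID1 (chr20:31605169-31605288, plus strand): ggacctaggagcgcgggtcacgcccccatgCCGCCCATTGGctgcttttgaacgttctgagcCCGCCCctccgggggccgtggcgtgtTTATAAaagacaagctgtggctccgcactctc
MT2A (chr16:56608464-56608583, plus strand): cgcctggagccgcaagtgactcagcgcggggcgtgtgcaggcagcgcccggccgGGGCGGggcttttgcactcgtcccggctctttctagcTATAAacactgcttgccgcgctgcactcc
HSPA1A (chr6:31815423-31815542, plus strand): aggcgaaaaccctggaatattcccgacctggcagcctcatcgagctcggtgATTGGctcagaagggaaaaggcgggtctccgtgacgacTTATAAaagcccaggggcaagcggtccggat
H2AX (chr11:119095466-119095585, minus strand): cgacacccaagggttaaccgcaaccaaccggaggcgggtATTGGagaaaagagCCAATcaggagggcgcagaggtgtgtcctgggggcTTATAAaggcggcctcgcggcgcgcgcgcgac
JUND (chr19:18281623-18281742, minus strand): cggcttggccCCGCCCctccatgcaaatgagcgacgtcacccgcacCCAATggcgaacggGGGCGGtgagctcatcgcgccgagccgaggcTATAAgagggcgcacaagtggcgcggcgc
TMSB10 (chr2:84905536-84905655, plus strand): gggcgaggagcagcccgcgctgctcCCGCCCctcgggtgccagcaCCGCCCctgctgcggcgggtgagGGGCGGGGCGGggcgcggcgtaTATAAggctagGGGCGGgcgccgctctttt
RPS27 (chr1:153990642-153990761, plus strand): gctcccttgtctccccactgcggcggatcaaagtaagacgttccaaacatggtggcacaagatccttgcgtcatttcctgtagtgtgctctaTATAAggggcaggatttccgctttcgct
RPL10A (chr6:35468281-35468400, plus strand): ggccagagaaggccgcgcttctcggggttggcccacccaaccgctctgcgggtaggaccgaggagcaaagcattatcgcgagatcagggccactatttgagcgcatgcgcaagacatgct
CDK5R2 (chr2:218959546-218959665, plus strand): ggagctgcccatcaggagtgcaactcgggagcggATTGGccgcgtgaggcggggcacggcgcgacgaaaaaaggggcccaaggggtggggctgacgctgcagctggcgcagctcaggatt
In the first 7 sequences the first T of TATAAA lies 27 to 31 bases before the start, at 27 in ATF4, 29 in MT2A, 30 in HSPA1A and 31 in JUNB, GADD45B, ID1 and H2AX. In JUND, TMSB10 and RPS27 the first T of TATAA lies 29, 30 and 28 bases before it. A match describes these letters and is not evidence of a bound factor, and the absence of a match says only that the letters are not in the window.

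Short genes carried Pol II less often than longer genes. A control peak lay on 541 of 1838 short genes, or 29.4% (27.4 to 31.6), and a knockdown peak on 514, or 28.0% (26.0 to 30.1). Over all protein-coding genes the shares were 65.5% and 61.3%. Within the short genes the share climbed with length, from 11.5% under 1 kb (53 of 461 genes) over 26.6% at 1 to 2 kb (192 of 722) to 45.2% at 2 to 3 kb (296 of 655) in the control list, and from 10.8% over 24.7% to 43.7% in the knockdown list. Genes of 3 to 5 kb stood at 49.6% and 45.3%. A longer span is hit by a peak more easily, so the shares were also taken as any peak within 1000 bp of either gene end. With these windows the control shares were 14.3%, 30.2% and 47.8% in the 3 length classes under 3 kb. Over all genes of 3 kb or more the share was 62.6%. In genes under 2 kb the windows at either end overlap, so the searched stretch still grew with length there. From 2 kb upward it was the same for every gene.

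**Figure D1:**
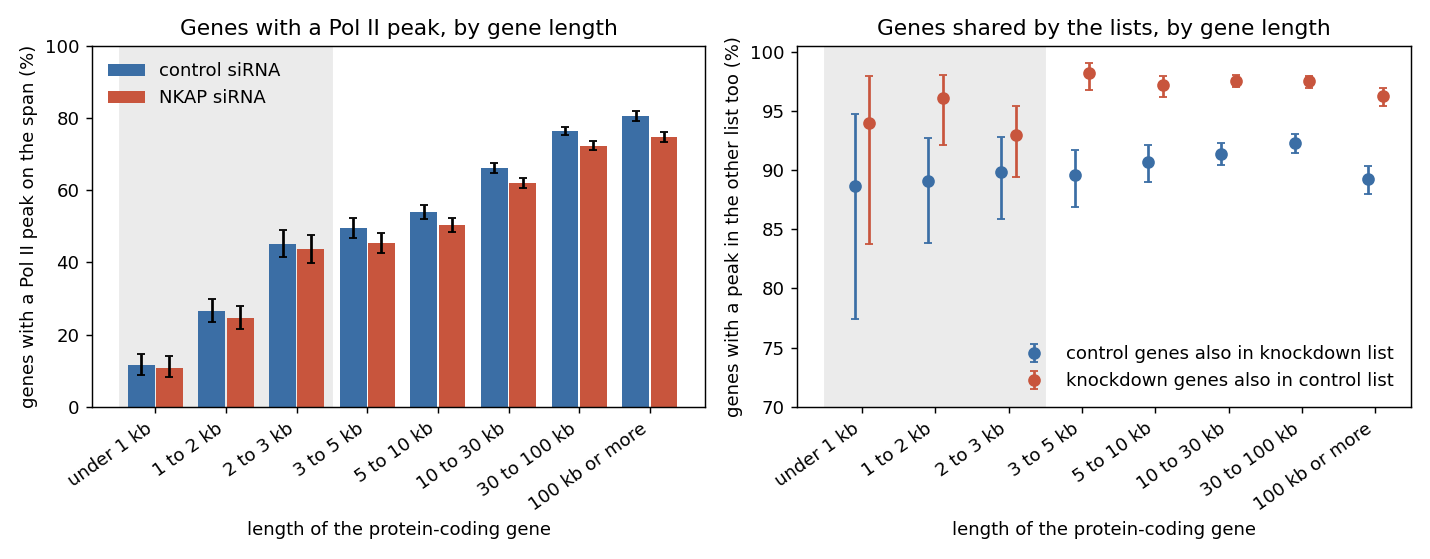
Left, the share of protein-coding genes with a Pol II peak on their span (y axis, %) by gene length (x axis) for the control and the NKAP siRNA library, with 95% Wilson intervals as bars and genes under 3 kb shaded. Right, the share of the genes of each list that also had a peak in the other list (y axis from 70%); under 3 kb it lies between 88.7% and 96.1% in every class.

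Most short genes with Pol II had a peak in both libraries. Of 1838 short genes, 484 carried a peak in both lists and 1267 in neither. A further 57 had a control peak alone and 30 a knockdown peak alone. The knockdown list thus held 89.5% (86.6 to 91.8) of the control genes, against 91% over all protein-coding genes. Of the knockdown genes 94.2% (91.8 to 95.9) also had a control peak, against 97.1% over all protein-coding genes and 98.2% (96.8 to 99.04) among genes of 3 to 5 kb. Both shares are near those of the other genes, the second somewhat below them, and the difference was not tested. The knockdown library was the shallower (relative depth 0.857 by the background of the peak caller), and its list is the shorter. With equal numbers of the strongest peaks the single-list genes numbered 39 in the control and 46 in the knockdown list, so their order turned.

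Taken as peaks, those at short genes were wider and stronger than other peaks and were more often found in both lists. Their median fold enrichment over background, as the authors' peak caller gave it, was 11.6 in the control list (all other peaks 6.62) and 10.5 in the knockdown list (7.42). Their median width was 1474.5 bp against 671 bp, and 1103 bp against 649 bp. A wide peak meets a short span more easily, and also a peak of the other list. The selection by an overlap of 1 bp thus itself favours wide and shared peaks, and its part was not tested. With the summit inside the gene the median widths were 1267 and 1005 bp. A knockdown peak overlapped 516 of 630 control peaks at short genes, or 81.9% (78.7 to 84.7), where the share over all control peaks was 54.2%. A control peak overlapped 552 of 593 knockdown peaks at short genes, or 93.1% (90.8 to 94.9), where the share over all knockdown peaks was 82.8%. Peaks that touched only genes of 3000 bp or more stood at 57.9% and 86.7%, but those can lie far from either gene end, which a peak at a short gene cannot.

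The distance between these shares was smaller when peaks of like strength were compared. Each list was split into 10 groups of equal size by the −log10 p-value, and the other peaks were weighted to the strength of the peaks at short genes. The other peaks then stood at 75.4% in the control and 89.7% in the knockdown list. The share at short genes was higher than that of other peaks in 10 of 10 control groups and in 9 of 10 knockdown groups. In the weakest control group 4 of 19 peaks at short genes were overlapped, and in the strongest 164 of 164. By summit, and without weighting, 76.6% of the control peaks with the summit inside a short gene were overlapped. Where the summit lay outside, the share was 92.1%. The knockdown shares were 92.0% inside and 95.3% outside. The weighted 75.4% and 89.7% were matched to the strength of all peaks at short genes, not of those with the summit inside. The shares by summit are therefore not directly comparable with them.

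**Figure D2:**
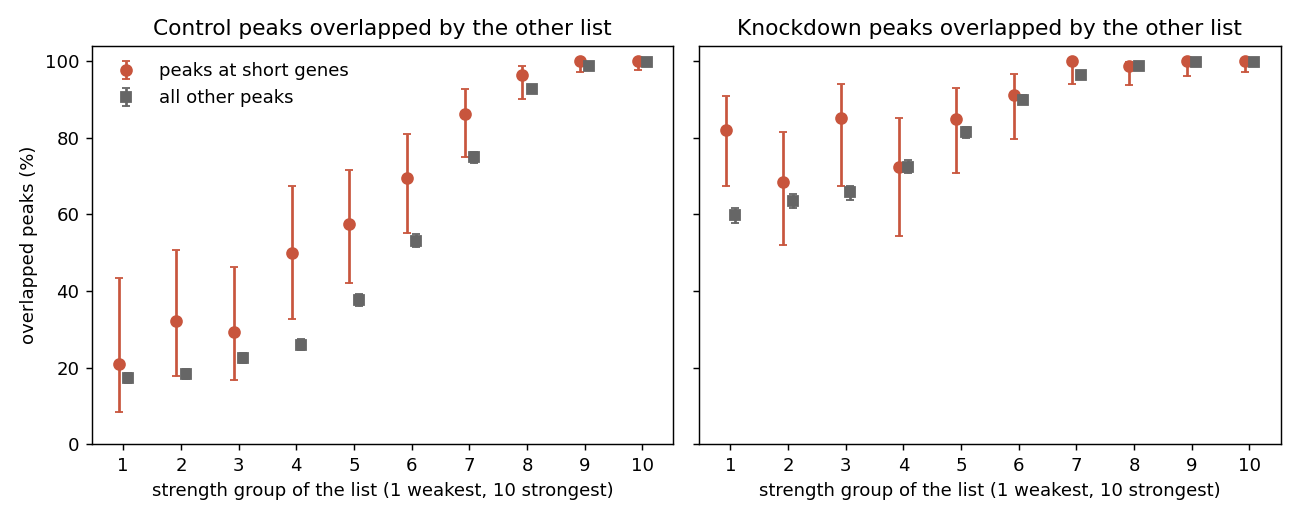
Share of peaks overlapped by a peak of the other list (y axis, %) by strength group of the list (x axis, 1 weakest to 10 strongest by −log10 p-value), for peaks at short genes and for all other peaks, with 95% Wilson intervals. In the control list the short-gene share is 21.1% in the weakest group and 100% in the 2 strongest, and lies above the other peaks in every group.

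Pol II at short genes was often shared with a neighbour. In the control list 269 of the 541 genes (49.7%) had a peak that touched no other protein-coding gene, and in the knockdown list 280 of 514 (54.5%). The summit, the point of highest coverage, lay inside the short gene for 364 control genes (67.3%) and 351 knockdown genes (68.3%). For the others the summit lay outside the gene, either close to its own start or further away, so the peak may belong to a neighbour. Among the 434 control carriers with a known strand, 90 had the summit within 300 bp upstream of their start. An example of a peak shared with neighbours is at SLC35G6, a solute carrier gene on chromosome 17. It had a control fold of 45.3 and no knockdown peak on its span. Its control peak also covered POLR2A and ZBTB4 with the summit outside SLC35G6, and the nearest knockdown peak lay 186 bp away. Where a gene had several peaks, a peak with its summit inside the gene was taken first and then the highest fold.

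Among short genes with the summit inside, the highest control folds lay at JUND, which encodes a subunit of the AP-1 transcription factor, and TNFRSF12A, which encodes the receptor of the cytokine TWEAK. JUND (chromosome 19, 18279694 to 18281622) had a fold of 74.9 from 173 summit reads in the control and 50.4 from 111 reads in the knockdown list. TNFRSF12A (chromosome 16, 3020368 to 3022383) had folds of 73.5 and 58.4 on a peak shared with HCFC1R1 and THOC6. TMSB10, an actin-sequestering thymosin gene, had folds of 59.8 and 40.4, with 195 and 130 summit reads. These 3 genes were covered from end to end by the control peak, and TNFRSF12A and TMSB10 also by the knockdown peak. JUND had 2 knockdown peaks, which together covered 90.1% of it.

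The other control folds among the highest 10 were those of RPS2 (56.5, and 46.8 in the knockdown list), ATF4 (56.1 and 54.9), MARCKSL1 (54.7 and 25.2), RPS27 (54.4 and 42.8), GADD45B (54.0 and 40.5), H2AZ1 (53.5 and 41.2) and ID1 (53.1 and 39.95). RPS2 and RPS27 encode proteins of the small ribosomal subunit, ATF4 the main transcription factor of the integrated stress response, and GADD45B a growth arrest protein induced by stress. MARCKSL1 encodes a regulator of actin, H2AZ1 a histone variant found at promoters and ID1 an inhibitor of bHLH transcription factors. Folds are set by the depth and background of each library, so a lower knockdown fold is a value of that list and not a measured loss. Over the 484 genes with a peak in both lists the median fold was 14.7 in the control and 11.8 in the knockdown list.

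In the knockdown list RPS12, a small-subunit ribosomal protein gene on chromosome 6 (132814569 to 132817564), led with a fold of 70.6 and a −log10 p-value of 256, where the control values were 27.1 and 178. Both lists had 161 reads at its summit, so the folds differ in the background and scaling they are divided by, not in the reads. TUBB4B, a beta-tubulin gene, had folds of 56.7 in the knockdown list and 45.7 in the control list. The rest of the knockdown list's highest 10 were TNFRSF12A, ATF4, RPL10A (54.8 and, in the control list, 52.1), JUND, CSKMT (48.9 and 64.2), RPS2, JUNB (46.1 and 42.4) and SOCS1 (44.5 and 42.9). CSKMT encodes the methyltransferase of citrate synthase, SOCS1 a feedback inhibitor of cytokine signalling, JUNB another AP-1 subunit and RPL10A a protein of the large ribosomal subunit. The control summit of CSKMT lay 7 bp before its start, on a peak shared with C11orf98 and LBHD1.

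**Figure D3:**
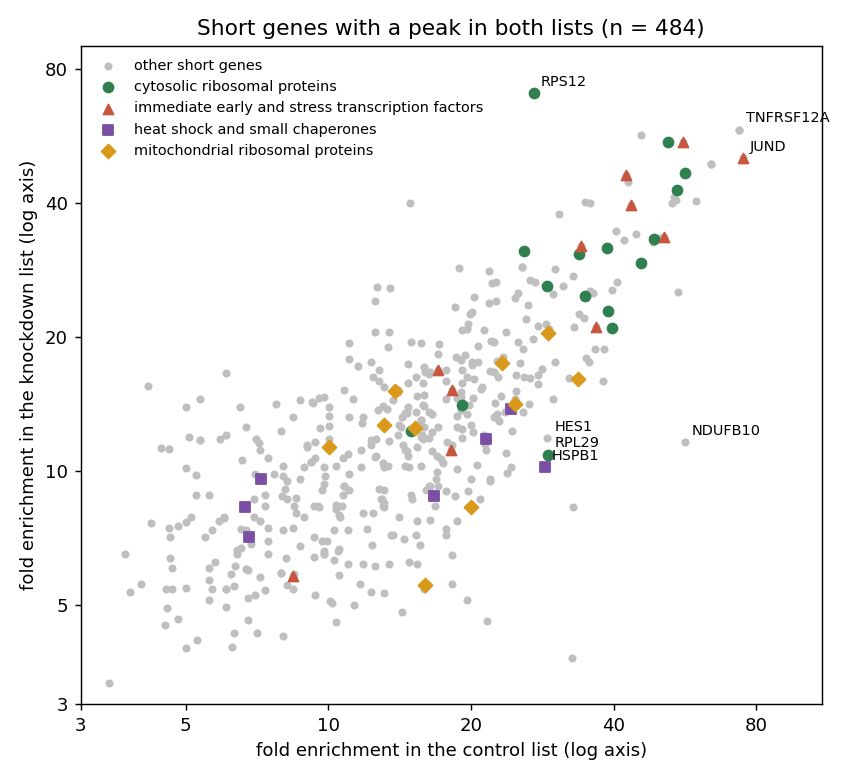
Fold enrichment of the peak at each of the 484 short genes found in both lists, with the control value on the x axis and the knockdown value on the y axis, both log axes, with 4 gene groups marked. Cytosolic ribosomal protein genes lie towards the upper right, RPS12 (27.1 and 70.6) stands above the other marked genes and NDUFB10 (56.5 and 11.6, from different peaks) far to the right.

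Summits gathered just after the start site in both libraries. The strand and start were known for 1353 of the 1838 short genes, among them 434 control and 412 knockdown carriers. In the control list 43.8% (39.2 to 48.5) of the summits lay in the first 300 bp of the gene, 20.7% within 300 bp upstream, 23.7% further inside the gene, 5.07% past its end and 6.68% more than 300 bp upstream. The knockdown shares were 43.4% (38.7 to 48.3), 21.4%, 23.3%, 5.34% and 6.55%, each within the interval of the control share. The first 100 bp alone held 131 control and 106 knockdown summits.

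Gene by gene the summit was often displaced, with no common direction. Over the 392 genes with a strand and a peak in both lists, the median summit lay 64 bp after the start in the control and 74 bp in the knockdown list. The median difference along the gene was 12 bp, with quartiles of −105 and 117 bp. For 181 genes (46.2%) the summits lay within 100 bp of each other. The knockdown summit was more than 100 bp further along at 109 genes and more than 100 bp further back at 102. HES1, which encodes a repressor activated by Notch, shows how this depends on the peak taken. It had 1 control peak with the summit 29 bp before the start (fold 29.0) and 2 knockdown peaks, of which the 1 with its summit inside lay 1695 bp after the start (fold 11.8).

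**Figure D4:**
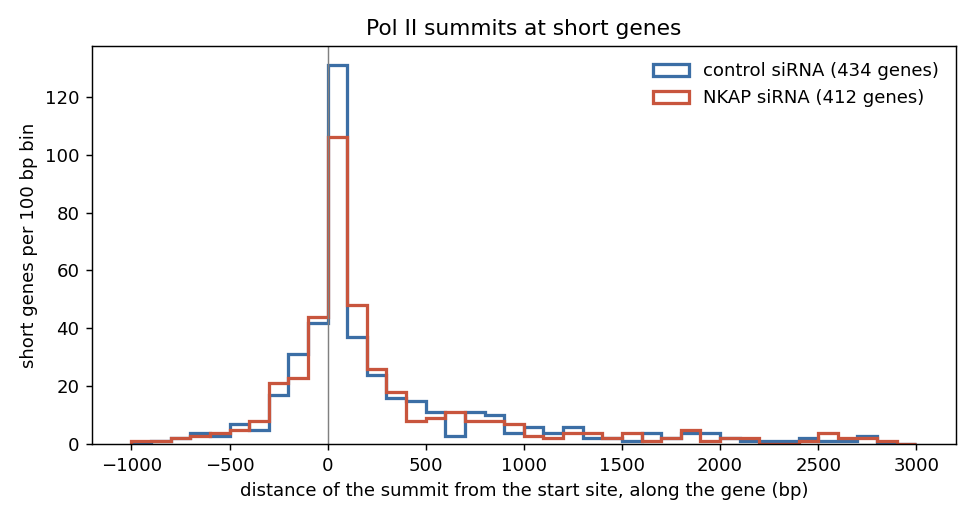
Number of short genes (y axis, per bin of 100 bp) by the distance of the Pol II summit from the start site along the gene (x axis, bp) for 434 control and 412 knockdown carriers with a known strand. Both libraries peak in the first 100 bp, with 131 and 106 genes, and 13 control and 9 knockdown summits lie outside the plotted range.

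Pol II peaks covered more of most short genes in the control list. Over the 484 genes with a peak in both lists the median share of the span under peaks was 65.6% in the control and 44.0% in the knockdown list. Coverage was larger in the control list at 333 genes, larger in the knockdown list at 78 and equal at 73. The control peaks covered 133 of these genes from end to end and the knockdown peaks 77. By length, the medians were 100% and 100% under 1 kb, 75.7% and 51.1% at 1 to 2 kb, and 46.9% and 34.1% at 2 to 3 kb. The control peak was the wider at 394 of 484 genes, with medians of 1797.5 and 1254.5 bp. Over all peaks the control list was also the wider, with medians of 681 and 656 bp, and the control library was the deeper one. Those medians are of whole lists, unpaired and with the peaks of a single list, so they are not like the medians over shared genes. The part of depth in the coverage was not tested.

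The 3′ end of the gene was reached less often. Among genes with a strand, the peak taken for the gene extended past the annotated end at 128 of 434 control carriers (29.5%, 25.4 to 33.9) and at 95 of 412 knockdown carriers (23.1%, 19.3 to 27.4). A gene with several peaks enters here by 1 of them only, and 92 control and 81 knockdown carriers, with or without a known strand, had more than 1. For JUND the control peak ran 2336 bp past the end. The stronger of its 2 knockdown peaks stopped 306 bp short of the end, and the other, weaker peak lay across the end. For ATF4 these distances were 6787 and 2846 bp past the end, on a control peak that also covered RPS19BP1, and for RPL10A 6587 and 4577 bp, on peaks shared with TEAD3. For TMSB10, alone on its peak, they were 2360 and 2055 bp.

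The gene groups ranged from Pol II at every short member to none. Over all short genes 29.4% had a control peak and 28.0% a knockdown peak, and the counts of each group stand beside these shares. The 20 groups took in 516 short genes, and 1322 were in no group. Of the 57 control-only and 30 knockdown-only short genes, 6 were in a group, in 5 of the 20 groups, and 55 and 26 were in none.

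All 16 short cytosolic ribosomal protein genes had a peak in both lists, against 29.4% of all short genes in the control and 28.0% in the knockdown list. Their median control fold was 36.8, against 13.3 over all short carriers. RPS2, RPS27, RPL10A and RPL41 had the highest control folds, the last at 48.7 in the control and 33.2 in the knockdown list. RPL29 had folds of 29.0 and 10.9, and RPS25 the lowest control fold, 14.9, with 12.3 in the knockdown list. The median share of the span under peaks was 100% in both lists. NDUFB10, a respiratory complex I gene next to RPS2, lay on the same control peak of 7074 bp as RPS2 (fold 56.5). In the knockdown list the RPS2 peak (fold 46.8) also touched NDUFB10, which had a second peak with a fold of 11.6 and its summit 14 bp after the start. The latter was taken for NDUFB10 because its summit lay inside the gene, so the values 56.5 and 11.6 belong to different peaks.

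The 10 short genes of mitochondrial ribosomal proteins also had a peak in both lists, at lower folds, with a control median of 18.0. MRPL57 had the highest control fold (33.6, and 16.1 in the knockdown list), followed by MRPL53 (29.1 and 20.4) and MRPS26 (24.8 and 14.2). Of 14 short genes of the respiratory chain and ATP synthase 9 had a peak in both lists, among them COX5B, of cytochrome c oxidase (19.1 and 11.8), and UQCRQ, of complex III (18.5 and 23.4). COX6A2, the muscle form of a cytochrome c oxidase subunit, had a knockdown peak only (fold 6.05, 12 summit reads), with its summit outside the gene and the nearest control peak 14156 bp away.

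Of 13 short genes of immediate early and stress transcription factors and regulators, 11 had a peak in both lists. Their median control fold was 36.8. A promoter sequence was at hand for 11 of the 13, and in 7 of these TATAA, the letters added after the sequences were seen, began 40 to 20 bases before the start. TATAAA did so in 3 of the 11. Over all protein-coding promoters the shares were 5.70% and 3.67%, and over the promoters of all short genes 13.7% and 9.24%. JUND and ATF4 led, followed by RHOB, which encodes a small GTPase induced by growth factors and DNA damage (51.2 and 33.6), and CITED2, a CBP/p300-binding coregulator (43.6 and 39.6). JUNB and CEBPB, a C/EBP family factor (34.1 and 32.05), were covered from end to end in both lists. EGR4, of the early growth response family, had a knockdown peak only, weak (fold 4.55) and 2138 bp after its start.

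Growth arrest and feedback inhibitors had a peak in both lists at 5 of 6 short members. GADD45B and SOCS1 led, followed by DUSP2, a nuclear phosphatase of MAP kinases (21.8 and 28.1), whose covered span was 32.8% in the control and 61.0% in the knockdown list, against the direction at most genes. CDKN2D, a CDK4 and CDK6 inhibitor, had folds of 13.7 and 14.4. Of 25 short ID, HES, SOX and related developmental regulators 10 (40%) had a peak, all of them in both lists. The highest control folds were at ID1, HES1, NOG, a BMP antagonist (27.7 and 15.7), and ID2 (23.8 and 9.90).

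Heat shock and small chaperone genes had a peak in both lists at 7 of 10 short members. HSPB1, which encodes the small heat shock protein HSP27, had a control fold of 28.6 from 113 reads and a knockdown fold of 10.2 from 54 reads, and its whole span was covered in both lists. HSPA1A and HSPA1B, the inducible HSP70 genes, had control folds of 24.3 and 21.5 and knockdown folds of 13.8 and 11.8, with summits 14 to 66 bp after the start. These are near-identical copies, so the reads of each may come from the other and their values are uncertain. HSPB2 was in the control list only, at a fold of 5.52 on a peak shared with CRYAB, and the nearest knockdown peak lay 58 bp away.

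Of 10 short metallothionein genes, which encode metal-binding proteins induced by zinc and cadmium, 3 had a peak, each in both lists. This share of 30% is near that of all short genes (29.4% in the control and 28.0% in the knockdown list). The carriers were MT2A (50.3 and 33.4), MT1E (42.1 and 33.0) and MT1X (22.6 and 24.1), and closely related copies make their read assignment uncertain. The 8 ubiquitin, redox and iron storage genes all had a peak in both lists, led by GPX1, a glutathione peroxidase (30.1 and 28.5), GSTP1, a glutathione transferase (27.7 and 16.4), FTL, the ferritin light chain (27.3 and 26.6), and UBB, a polyubiquitin gene (22.4 and 19.5). Of 14 short S100, thymosin and actin-related genes 42.9% had a control peak and 35.7% a knockdown peak. In both lists there were 5, among them TMSB10, ACTG1 (36.1 and 25.1), TMSB4X (32.2 and 16.2) and PFN1 (24.9 and 15.1). S100A4, a calcium-binding protein linked to cell motility, had a control peak only, with a fold of 8.02 and a summit 1071 bp after its start.

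Replication-independent and variant histone genes had 2 carriers among 12 short members (16.7%), H2AZ1 and H2AX (44.6 and 34.1). H2AX encodes the histone phosphorylated at DNA breaks. The 4 short genes of Pol II subunits and general factors all had a peak in both lists. POLR2L, a shared subunit of the 3 polymerases, had a control fold of 14.9 from 88 summit reads and a knockdown fold of 39.99 from 81 reads. The gene lay on the widest control peak of the short genes, 13472 bp. That peak also covered CD151 and TSPAN4, and its summit lay 20 bp before the start of POLR2L (34 bp in the knockdown list). POLR2I, TAF7 and MED11, of Pol II, TFIID and the Mediator, had folds of 26.7 and 16.2, 23.3 and 18.1, and 16.8 and 8.36. SF3B5, the 1 short spliceosome gene of its list, had folds of 14.7 and 17.4.

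The sensory receptor, keratin-associated, defensin, interferon, protocadherin beta and chemokine groups had few peaks or none. A peak lay on 1 of 198 short olfactory receptor genes, OR1R1 (10.0 and 11.8), on a peak shared with OR3A2, and on 2 of 94 keratin-associated protein genes, KRTAP2-3 (7.94 and 5.92) and KRTAP21-3 (6.42 and 6.50). These 3 genes carried theirs in both lists. None of 23 bitter taste receptors, 13 beta-defensins, 17 type I interferons and the 1 short protocadherin beta gene had a peak in either list. Of 27 short chemokine and growth factor genes, CXCL3 had a peak in both lists (5.77 and 6.27), and CSF2 and CCL2, a macrophage growth factor and a monocyte chemokine, in the knockdown list only (6.43 and 6.78, 14 summit reads each). The nearest control peak lay 10044 bp from CSF2 and 703117 bp from CCL2.

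**Figure D5:**
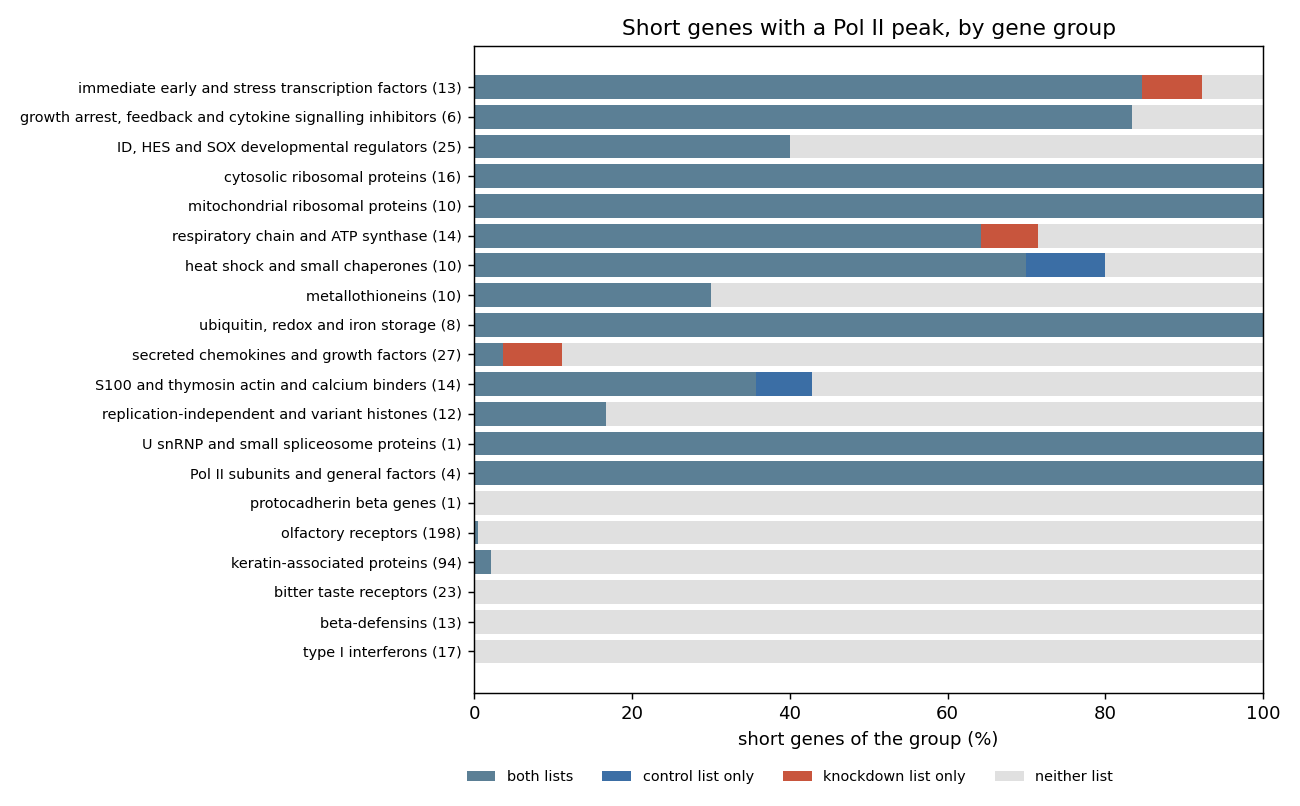
Share of the short genes of each group (x axis, %) with a Pol II peak in both lists, in 1 list only (control or knockdown) or in neither, with the number of short genes in parentheses. Ribosomal protein groups are filled to 100% by genes of both lists, sensory receptor and keratin-associated families are nearly empty, and 6 genes in 5 groups stand in a single list.

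Genes found in a single list mostly had weak peaks, with SLC35G6 (above) as the strongest. The 57 genes of the control list only had a median fold of 6.40, a median width of 563 bp and a median of 16 summit reads. The 30 of the knockdown list only had 6.19, 342.5 bp and 15.5 reads. The genes of both lists had medians of 14.7 and 11.8. A knockdown peak lay within 1000 bp of 19 of the 57 control-only genes, and a control peak within 1000 bp of 7 of the 30 knockdown-only genes. The nearest peak of the other list lay more than 5000 bp away for 29 and 21 genes.

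With the summit inside and the other list's nearest peak over 1000 bp away, the control-only genes of highest fold included C6orf47 (9.81), TP53TG3B (9.34), TP53TG3 (8.87), S100A4 (8.02) and NAP1L2 (7.94). NAP1L2 encodes a nucleosome assembly protein made in neurons. The nearest knockdown peak lay 4635 bp from C6orf47 and 83970 bp from NAP1L2. TP53TG3 and TP53TG3B are near-identical copies on chromosome 16, so neither value can be assigned with certainty. These peaks had 16 to 20 reads at the summit.

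By the same rule the knockdown-only genes were TPBGL (8.37), CDK5R2 (7.58), TREX2 (7.39), HOXB5 (7.005), TMEM52 (6.98) and TMEM271 (6.98). CDK5R2 encodes an activator of the neuronal kinase CDK5, TREX2 a 3′ to 5′ DNA exonuclease and HOXB5 a homeobox factor of body patterning. Their summits had 14 to 20 reads, and the nearest control peak lay between 3589 bp (HOXB5) and 97280 bp (TPBGL) away. The highest fold of all knockdown-only short genes was at G0S2, an inhibitor of triglyceride breakdown (11.1, 25 reads), whose summit lay 74 bp before its start and so outside the gene.

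Short genes with Pol II had promoters rich in CpG, and a TATA box was commoner among them than among longer genes with Pol II. In the 250 bases before the start, the ratio of observed to expected CpG had a median of 0.806 at the 392 genes of both lists with a promoter sequence, 0.644 at 42 control-only genes, 0.669 at 20 knockdown-only genes and 0.231 at 899 genes of neither list. Genes of 3000 bp or more with a peak in both lists had 0.828. The GC box GGGCGG, on either strand, was present in 64.5% of the short promoters of both lists and 20.1% of those of neither. Genes of 3000 bp or more with a peak in both lists had it in 67.6%, and all 15812 protein-coding promoters of the same length in 55.8%. The ETS letters CCGGAAG, on either strand, were present in 17.6% and 1.89% of the short promoters of both lists and of neither. The share was 16.5% at the longer genes of both lists and 11.7% over all promoters.

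TATAAA beginning 40 to 20 bases before the start, on the strand of the gene, was found in 26 of 392 short promoters of both lists, or 6.63% (4.57 to 9.54). The share was 1.20% (1.00 to 1.44) at 9398 genes of 3000 bp or more with a peak in both lists and 3.67% of all promoters. Short genes of neither list had it in 10.7% (8.82 to 12.9), and keratin-associated protein genes in 34 of 80. The shorter letters TATAA, which contain TATAAA matches and were added after the sequences were seen, stood at 9.18%, 2.14% and 5.70% in the same order and at 16.1% of short genes of neither list. The 26 genes with TATAAA had a median control fold of 22.5 (quartiles 10.5 and 44.1) and the 366 without it 14.7 (9.54 and 21.05). In the knockdown list these were 14.98 (10.8 and 33.9) and 11.8 (7.90 and 16.8). The quartiles overlap in both lists, neither these folds nor the shares above were tested, and 485 short genes without a promoter sequence are not in these counts.

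At the length limit, the genes just inside were RPS12 (2996 bp), PRAMEF17 (2998 bp, no peak) and TMEM179B (2999 bp, folds of 31.3 and 26.1), and those just outside LITAFD (3000 bp, a control peak with a fold of 6.51), CMTM5 and SCGB2A2 (3002 and 3003 bp, no peak). Of 9 osteoblast and mesenchymal marker genes 7 had a peak in each list, among them RUNX2, SP7, VIM and the short osteocalcin gene BGLAP (5.88 and 7.71), and COL1A2 and SPP1 had none. Of 10 markers of blood, liver, epithelium and neurons 3 had a control peak and 2 a knockdown peak, PTPRC and SYP in both lists and CDH1 in the control list. Over all protein-coding genes 65.5% had a control and 61.3% a knockdown peak, so these few markers do not establish a cell type. By control fold SYP (19.1) stood above RUNX2, SP7, ALPL and BGLAP and below COL1A1, SPARC and VIM. BGLAP shares its peaks with the readthrough gene PMF1-BGLAP. The depth behind the values was read from the peak lists: peaks at short genes had a median of 32 reads at the summit in the control list (8 to 203) and 28 in the knockdown list (9 to 161).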

How the data were processed

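Pol II peaks were examined in 1 control and 1 NKAP knockdown ChIP library of U2OS cells. The input libraries were not analysed here. The submitters' processing notes name MACS2 2.1.0, Bowtie 1.1.2, Trimmomatic 0.33 and bcl2fastq 2.17 and the build hg38, without settings, which the sources used here do not give. Each deposited list holds the peaks of 1 library, with a deposited score, the fold enrichment (a ratio), the −log10 p-value and the −log10 q-value of the summit as the authors' caller gave them. The lists end at −log10 q-values of 3.01 and 3.02, so a gene without a peak can hold Pol II below that threshold.

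From these lists the overlap with RefSeq genes (1 bp or more), summit positions, covered spans and Wilson intervals were computed with Python 3.11.15, numpy 2.4.6, pandas 2.3.3 and scipy 1.17.1, and the code was tested on simulated data. Fold and p-value together gave whole summit reads, within 0.005 of the −log10 p-value, for 99.8% of the control and 100% of the knockdown peaks at short genes, the knockdown pileup being scaled by 0.926. The relative depth was taken from the caller's background, with the narrowest peak as the fragment length. Start sites and strand came from the RefSeq promoter table of GRCh38.p14, matched by gene identifier. No test between conditions was made.

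Named genes followed a fixed rule: the 10 highest folds per list with the summit inside the gene, the 6 highest in 1 list only with no peak of the other within 1000 bp, up to 4 members of each of 20 gene groups with the highest control fold and every single-list member, the genes at the length limit, and those with the 3 widest peaks. Of the control-only genes, 1 is not reported here. The genes outside this rule, such as those shown for their promoters, span or TATA letters, were picked with their values in view. The members and lists were chosen with earlier results of these data known. The alternatives were a stricter q-value, equal numbers of strongest peaks, a limit of 2000 bp, a summit inside the gene, an overlap of 50% of the shorter peak, and counting a peak within 1000 bp of the gene, the last of these added after the data were seen.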

Additional observations from a re-analysis of the deposited data

How the results depend on the processing

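Of 30 alternative values for the 6 shares and counts, 17 stayed within the 95% interval of the reported share or within 1.5 times the reported count. With equal numbers of strongest peaks, 89.2% of control peaks at short genes were overlapped and 89.2% of knockdown peaks, 92.3% of control genes were also in the knockdown list and 91.1% of knockdown genes in the control list, and the knockdown-only genes numbered 46 against 39 control-only genes, which turned the order of these counts. With the summit required inside the gene, 76.6% of control peaks were overlapped, 73.6% of control genes and 76.4% of knockdown genes were shared, and 96 control and 83 knockdown genes were in a single list. Under 2000 bp, 27 and 10 genes were in a single list, from fewer genes tested. Counting the other list's peaks up to 1000 bp from the gene gave 93.0% of control genes, with 38 and 23 single-list genes. The 2000 bp limit and the inside rule both left fewer carriers, but the single-list counts fell under the first and rose under the second. The cause of these shifts was not tested. No paired analysis was possible because each group held 1 ChIP library. Weak peaks had 8 or 9 reads, so a single-list gene may lie near the threshold in the other list.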

Other observations

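Carriers of a control peak were unevenly spread over the chromosomes. They made up 52 of 98 short genes on chromosome 16 (53.1%), 58 of 127 on chromosome 19 (45.7%) and 18 of 37 on chromosome 10 (48.6%), but 2 of 60 on chromosome 21 (3.33%), which holds a cluster of keratin-associated protein genes, and 0 of 10 on chromosome 18. On the X chromosome 32 of 119 short genes carried a control peak and 27 a knockdown peak, and 6 and 1 of these were in that list alone. Over all short genes 57 of 541 control carriers and 30 of 514 knockdown carriers were in that list alone. The X counts are small and were not tested.

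The covered span differed most, in favour of the control list, at LOC127898562, a gene of 84 bp, and then at CDK2AP2, a gene of a CDK2-associated protein (100% in the control and 16.4% in the knockdown list), and SDF2L1, a chaperone gene of the endoplasmic reticulum (96.3% and 13.6%). The control peak of CDK2AP2 also covered PITPNM1. In favour of the knockdown list it differed most at S100A6, a calcium-binding protein gene (31.9% and 71.9%). These genes were chosen after their values were seen. COX6A2, CCL2, CSF2 and the other knockdown-only members of the gene groups each had 12 to 16 reads at the summit.

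The widest knockdown peak on a short gene, 13269 bp, covered CCDC85B together with FOSL1, which encodes an AP-1 subunit, and FIBP, with its summit 9641 bp past the start of CCDC85B. In the control list CCDC85B lay on a peak of 3515 bp with its own summit 76 bp after the start.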
